A study of Mus musculus with 17 samples.

Results

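Transcripts of proteins that the liver secretes into plasma were followed in medullary thymic epithelial cells. The set held 47 genes: carriers such as albumin, apolipoproteins, complement proteins, clotting proteins and the inter-alpha inhibitor heavy chain family. A gene was measured where a probe set of the array carried its symbol and no other, and where several did, the brightest on average over the arrays was used. That gave 43 members among 19752 genes measured. Gc, C3, C5 and Apoc2 had no such probe set and were not analysed here.

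The samples were 17 RNA preparations, each on its own Affymetrix Mouse Gene 1.0 ST array, from C57BL/6 mice of mixed sex. Cells of the thymic medulla lacking CD45 and Ly51 and rich in MHC class II had been sorted by flow cytometry. Every mouse carried Adig, a transgene in which Aire control sequence drives an Igrp-GFP fusion, so that GFP marks cells in which Aire is switched on. The wild-type (WT) groups were GFP+ cells of adults (3 arrays), GFP+ cells of perinates (3 arrays), GFP- cells of adults (3 arrays) and GFP- cells of perinates (2 arrays). Aire-knockout (KO) mice gave GFP+ cells of adults (3 arrays) and of perinates (3 arrays). Adults were 5 weeks old. Perinates are labelled as 3 days old, and the study's design text gives 0 to 3 days. No KO GFP- cells were analysed here. Whether the samples of a group were separate mice or pools is not stated, so a p-value here reflects only the spread among these samples, part of which may be technical. In such bulk samples, fewer cells that express a gene and less RNA per cell cannot be told apart.

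Aire is a transcriptional regulator of medullary thymic epithelial cells that brings about expression of many genes otherwise restricted to peripheral tissues, so that developing T cells that recognise those proteins are deleted or become regulatory T cells. Plasma proteins are textbook examples of such antigens, since hepatocytes make nearly all of them. In hepatocytes their genes are driven by transcription factors of the HNF1, HNF4, FOXA and C/EBP families, and the acute-phase genes among them also respond to interleukin 6. The comparisons ask how far these transcripts depend on Aire, and whether that differs between the perinatal period and adulthood.

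The sequence before the transcription start was examined for 37 of the 47 genes, those found in the RefSeq promoter table (mouse build GRCm38.p6). The stretches below run from 150 bases before the start to the base before it, on the gene's own strand, 5′ to 3′. Alb, Apoa1, Fgb and Fgg are genes whose transcripts fell in KO cells at both ages, and F2 and Itih1 fell at neither. Capitals mark exact matches, on either strand, to one of 6 short strings.
Alb: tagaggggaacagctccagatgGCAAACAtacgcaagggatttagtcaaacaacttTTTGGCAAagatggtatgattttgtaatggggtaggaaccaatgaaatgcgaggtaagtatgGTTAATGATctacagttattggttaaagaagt
Apoa1: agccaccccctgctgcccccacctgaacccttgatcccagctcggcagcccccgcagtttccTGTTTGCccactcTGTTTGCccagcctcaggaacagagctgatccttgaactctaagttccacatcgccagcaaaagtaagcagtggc
Fgb: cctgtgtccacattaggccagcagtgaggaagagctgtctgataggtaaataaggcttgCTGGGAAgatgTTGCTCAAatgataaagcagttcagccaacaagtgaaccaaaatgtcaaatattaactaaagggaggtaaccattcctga
Fgg: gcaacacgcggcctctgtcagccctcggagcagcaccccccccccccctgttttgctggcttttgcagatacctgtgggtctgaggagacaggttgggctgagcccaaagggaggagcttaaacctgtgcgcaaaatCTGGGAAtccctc
F2: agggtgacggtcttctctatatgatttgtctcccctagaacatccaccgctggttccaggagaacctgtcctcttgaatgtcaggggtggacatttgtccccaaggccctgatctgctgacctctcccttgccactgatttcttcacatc
Itih1: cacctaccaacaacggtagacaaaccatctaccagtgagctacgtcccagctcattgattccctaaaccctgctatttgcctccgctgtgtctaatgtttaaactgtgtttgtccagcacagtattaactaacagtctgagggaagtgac
Alb lies at chr5:90460720-90460869 on the plus strand and Apoa1 at chr9:46228480-46228629 on the plus strand. Fgb lies at chr3:83049864-83050013 on the minus strand and Fgg at chr3:83007574-83007723 on the plus strand. F2 lies at chr2:91636458-91636607 and Itih1 at chr14:30943290-30943439, both on the minus strand.

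In the Alb stretch the capitals are a FOXA string beginning 128 bases before the start, a C/EBP string at 94 bases and an HNF1 string at 32 bases. Apoa1 carried a pair of FOXA strings at 88 and 75 bases. Fgb carried an interleukin 6 response string at 91 bases and a C/EBP string at 80 bases, and Fgg carried an interleukin 6 response string at 13 bases. The F2 and Itih1 stretches held no match, which says only that these letters are not in this window. The 6 genes shown were chosen by hand and do not stand for the set. Apoa4, Itih3 and Itih4 also fell at both ages and held none of the 6 strings over 250 bases. Apoe, called at neither age, held TATAAA. Over 250 bases before the start, the C/EBP string TTGCNNAA was present in 40.5% of the 37 members and in 10.8% of all 27025 genes of the table. The FOXA string TGTTTGC was present in 21.6% against 4.93%, the HNF1 string GTTAATNAT in 13.5% against 0.866%, and the HNF4 string AGGNCAAAG in 8.11% against 2.08%. The interleukin 6 response string CTGGGAA was present in 10.8% against 10.4%, and TATAAA, the core of the TATA box, in 18.9% against 14.3%. The FOXA and C/EBP strings share the letters TTGC and can overlap, and no marked matches overlap in the stretches shown. The members' promoters were poor in CpG dinucleotides: the median ratio of observed to expected CpG was 0.2, against 0.403 for all genes, and 2.7% of members exceeded 0.6, against 36.5% of all genes. Of these members 16 were called lower in KO cells at either age and 18 were measured but not called lower. Among those 18 only Apoe, F2 and Itih1 were bright enough to be tested. The rest were too dim, and with dim genes included Afp, Ahsg, F5 and Itih2 were called lower at both ages. The 18 are therefore not genes shown to be unchanged. The C/EBP string was present in 6 of the 16 and 8 of the 18, and the FOXA string in 6 and 2. HNF1 was present in 2 and 2, HNF4 in 1 and 2, interleukin 6 response in 2 and 1, and TATAAA in 4 and 3. Whether any string goes with the fall was not tested. The matches describe letters and were not tested as binding sites.

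The arrays had median intensities of 144.5 to 157.1. The mean level of the Aire probe set was 4927 ± 284 in adult KO against 5097 ± 971 in adult WT GFP+ cells, and 5272 ± 1050 against 4773 ± 629 in perinates (SD, n = 3 each). The sources do not say which part of Aire the knockout removes, so this level does not check the KO labels. In GFP- cells of adults its mean was 690 ± 221 (SD, n = 3). The male-specific Uty was at 19.2 and 16.1 on perinate KO arrays 2 and 3 and at 168.9 to 366.2 on the other 15 arrays, although every sample is labelled as of mixed sex. When perinate KO arrays 2 and 3 were dropped, and the remaining array was taken to vary as the other groups do, 15 members were called lower in perinate KO cells in place of 19, and F2, at a log2 difference of 0.57 in place of 0.39, was not called. Epcam, which marks epithelial cells, was at 1967 to 4031 on every array.

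Adult KO GFP+ cells had less transcript of albumin, the main high-density lipoprotein protein Apoa1, the fibrinogen chains Fgb and Fgg and kininogen Kng1. These stood at between 11% (Fgg) and 27.7% (Fgb) of their levels in adult WT GFP+ cells. Of the 25 members bright enough to be tested, 18 fell and none rose in limma's test, where 10.8% of all 13842 tested genes fell and 9.06% rose; at an unadjusted p under 0.05, 1 member (Itih1) was higher. A fall of at least 2-fold was called for 14, against 4.38% of all tested genes. A difference was called at an adjusted p under 0.05 in limma's moderated test with Benjamini-Hochberg adjustment, and a gene was tested where its probe set stood above the array's 40th percentile (96.2 to 112.1) on at least 2 arrays. Members tested had therefore to be bright in some group. Ambp, C8b, Fgb, Itih3 and Itih4 passed through WT GFP+ arrays alone and fell at both ages, so for them the filter favoured a fall. Without that filter, 22 of the 43 members measured were called lower and 1 higher, against 11% and 7.58% of all genes; the dim members among them were Afp, Ahsg, F5 and Itih2, which were lower, and Fga, which was higher. Over the 43, the median log2 difference was -0.50 and 35 were below 0, while the median of all genes was 0.05 and 41.2% were below 0.

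In perinates 19 of the 25 fell and 1 rose, where 13% and 13.5% of all tested genes did. A fall of at least 2-fold was called for 10, against 4.28% of all tested genes. Without the filter, 27 of 43 were called lower and 1 higher, against 14.3% and 10.1% of all genes, and 36 of 43 differences were below 0 with a median of -0.50 (all genes, 47.9% and 0.01).

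**Figure D1:**
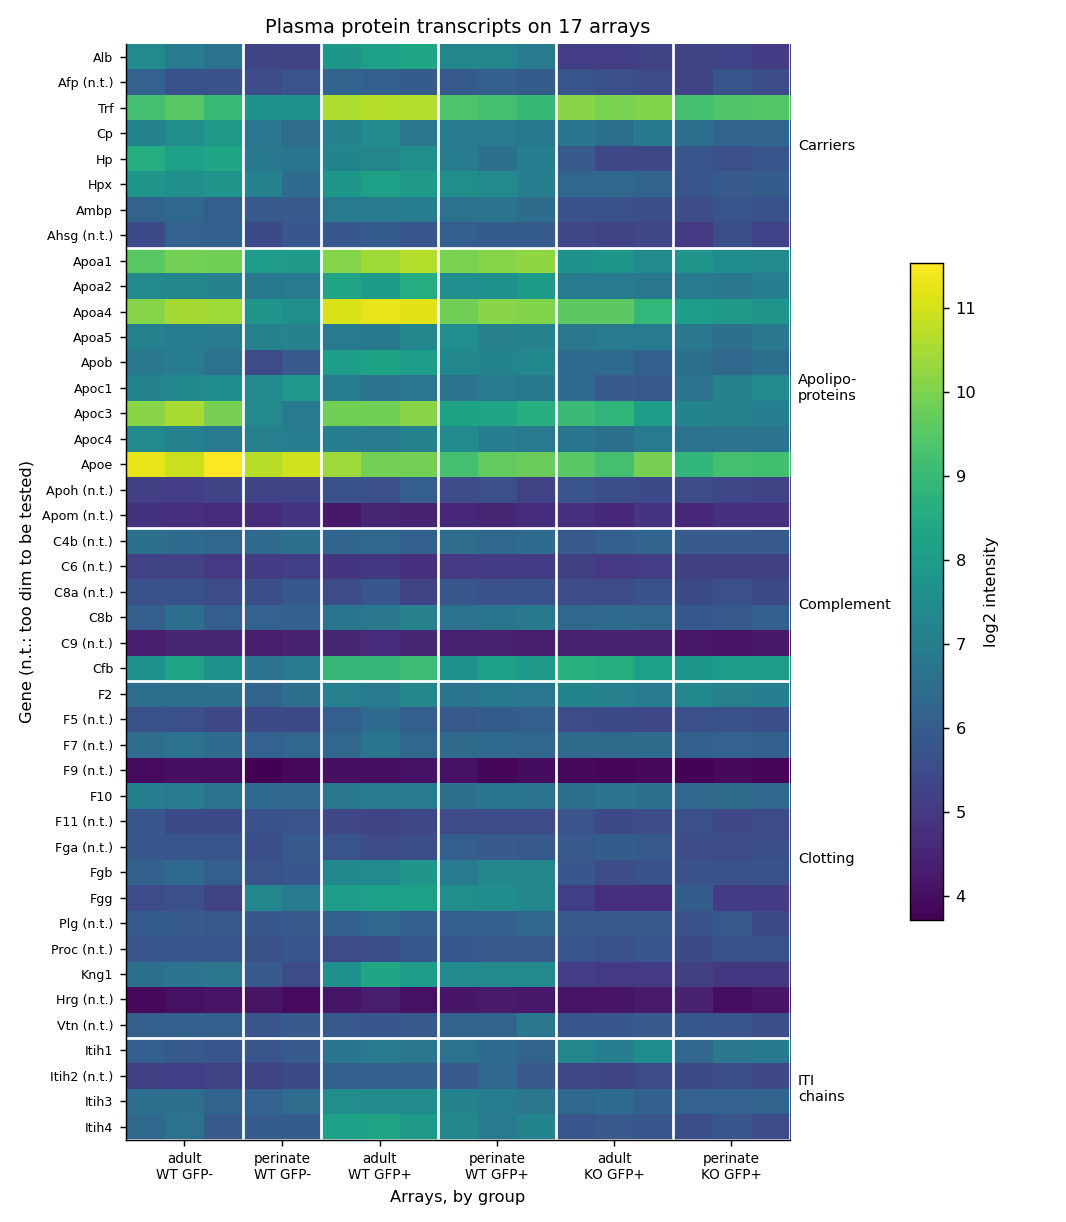
Log2 intensity of the 43 measured members (rows, grouped by role) on the 17 arrays (columns, by group). ITI stands for the inter-alpha inhibitor heavy chain family, and n.t. marks the 18 members too dim to be tested. The rows of Alb, Apoa1, Fgb, Fgg, Kng1 and Itih4 are brighter in the adult and perinate WT GFP+ columns than in the KO columns, and the n.t. rows are dark throughout.

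Among the carriers, albumin (Alb), the most abundant plasma protein, read 233, 281 and 316 on the adult WT GFP+ arrays and 35.5, 35.4 and 37.9 on the adult KO arrays. In perinates it read 159, 158.1 and 124 in WT and 40.04, 38.8 and 34.0 in KO cells. The groups lay far apart at both ages, and the KO readings of the 2 ages lay together. Albumin fell 7.58-fold in adults (log2 -2.92 ± 0.17 SE, limma adjusted p = 1.036e-09) and 3.90-fold in perinates (-1.96 ± 0.17, adjusted p = 2.153e-07).

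Haptoglobin (Hp), which binds free haemoglobin, read 153, 154 and 193 in adult WT GFP+ and 62.8, 42.6 and 42.7 in adult KO cells. It fell 3.42-fold (-1.77 ± 0.16, limma adjusted p = 2.992e-07) and in perinates 2.24-fold (-1.17 ± 0.16, adjusted p = 5.012e-05). Haemopexin (Hpx), the haem carrier, fell 3.22-fold from 252 ± 28.5 to 78.0 ± 2.1 in adults and 2.76-fold from 167 ± 29.7 to 60.2 ± 5.48 in perinates (SD, n = 3 each; adjusted p = 5.177e-07 and 4.022e-06). The KO and WT arrays did not overlap for either gene. Ambp, the precursor of alpha-1-microglobulin and of the inter-alpha inhibitor's light chain bikunin, fell 2.47-fold in adults and 1.97-fold in perinates (adjusted p = 2.225e-08 and 1.153e-06).

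Transferrin (Trf), the iron carrier, behaved otherwise. It read 1523, 1632 and 1602 in adult WT GFP+ cells and 1123, 1004 and 1067 in adult KO cells, a fall of 1.49-fold (-0.58 ± 0.13, limma adjusted p = 0.004179). In perinates the KO readings of 588, 680 and 702 overlapped the WT readings of 663, 607 and 492, and the difference was not called (0.17 ± 0.13, adjusted p = 0.3509). Ceruloplasmin (Cp), the copper carrier, was called lower in perinates only (-0.57 ± 0.18, adjusted p = 0.02453; adults -0.42 ± 0.18, adjusted p = 0.1046), and the ages were not shown to differ (adjusted p = 0.8016 for their difference). The perinatal Cp call was lost without perinate KO array 2 or 3 or from the perinate WT GFP+ side array 5 or 6 (p after adjustment 0.0939, 0.0839, 0.0688 and 0.055). Quantile normalization lost it too (adjusted p = 0.125).

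**Figure D2:**
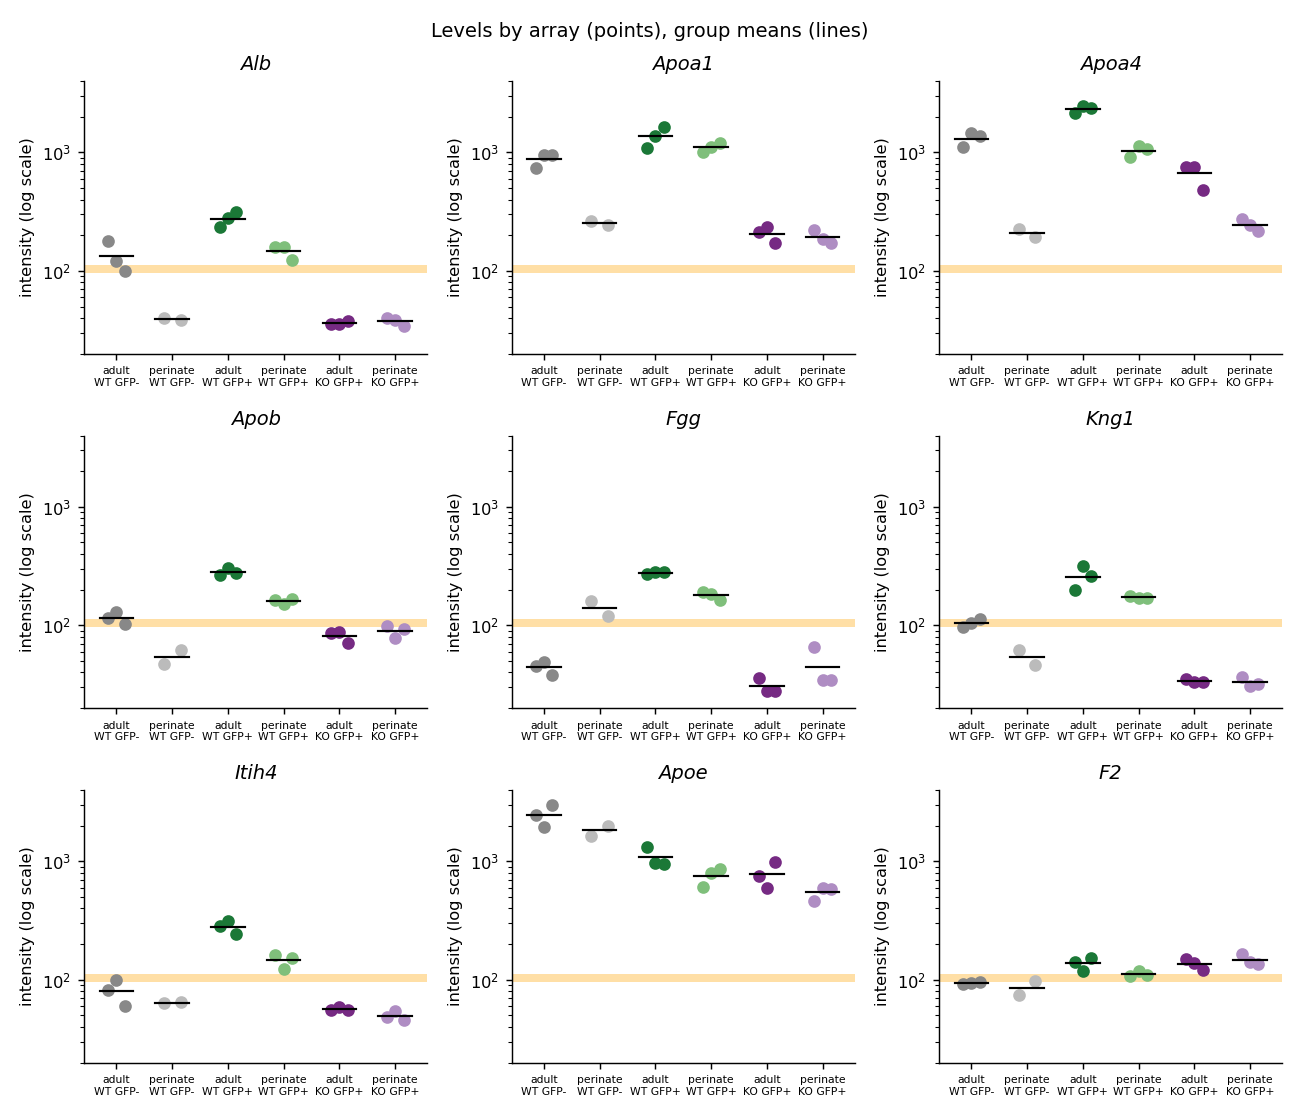
Intensity (log axis) of 9 members on each array (points) with the mean of each group (lines), and in orange the 96.2 to 112.1 range of the arrays' 40th percentiles. Alb, Apoa1, Kng1 and Itih4 drop from the WT GFP+ to the KO groups at both ages, Apoe is highest in the GFP- groups, and F2 shows no drop.

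Apolipoproteins are the protein part of the particles that carry lipid in blood. Apoa1, the main protein of high-density lipoprotein, read 1098, 1372 and 1626 in adult WT GFP+ cells and 212, 234 and 172 in adult KO cells. The perinatal readings were 1009, 1100 and 1202 against 221, 184 and 173. The arrays of the genotypes stood well apart, with a fall of 6.60-fold in adults (-2.72 ± 0.16, limma adjusted p = 9.03e-10) and 5.75-fold in perinates (-2.52 ± 0.16, adjusted p = 3.614e-09).

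Apoa4, an apolipoprotein of chylomicrons and high-density lipoprotein made largely by the intestine, read 2145, 2455 and 2352 in adult WT GFP+ and 755, 756 and 479 in adult KO cells. It read 910, 1123 and 1058 in perinate WT GFP+ and 272, 242 and 218 in perinate KO cells. The fall was 3.56-fold in adults (-1.83 ± 0.16, limma adjusted p = 1.869e-07) and 4.23-fold in perinates (-2.08 ± 0.16, adjusted p = 5.677e-08). KO cells of adults thus read above KO cells of perinates on every array.

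Apob, the structural protein of very-low-density and low-density lipoprotein, read 267, 307 and 276 in adult WT GFP+ and 86.7, 87.7 and 70.9 in adult KO cells. In perinates it read 164, 152 and 167 against 97.8, 78.2 and 93.0. The KO readings of the ages overlapped while the adult WT readings lay above all the others. Apob fell 3.48-fold in adults (-1.80 ± 0.13, limma adjusted p = 1.684e-08) and 1.80-fold in perinates (-0.85 ± 0.13, adjusted p = 0.0001457).

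Apoa2, the second high-density lipoprotein protein, fell 2.59-fold in adults and 1.73-fold in perinates (limma adjusted p = 1.034e-06 and 0.0004985). Apoc3, an inhibitor of lipoprotein lipase, fell 2.47-fold from 1003 ± 120.0 to 420.5 ± 135 in adults, and 2.35-fold from 340 ± 53.5 to 143 ± 6.89 in perinates (SD, n = 3 each; adjusted p = 0.0002397 and 0.0004259). Apoa5, which promotes triglyceride clearance, and Apoc4 were called lower in perinates, by 1.43-fold and 1.39-fold (adjusted p = 0.01006 and 0.02052). Their adult values were -0.15 ± 0.14 and -0.26 ± 0.14 and were not called (adjusted p = 0.4901 and 0.2211). Of these perinatal calls, Apoa5 was lost without perinate KO array 2 or perinate WT GFP+ array 5 (adjusted p = 0.0595, 0.0638), and Apoc4 without perinate KO array 1 or 2 or perinate WT GFP+ array 5 (0.0507, 0.0571 and 0.12). Quantile normalization also lost Apoc4 (adjusted p = 0.0923).

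Apoc1 and Apoe are carried on several lipoproteins and are also made by macrophages. Apoc1 fell 1.67-fold in adults, from 132, 104 and 111 to 87.1, 61.7 and 60.9 (-0.74 ± 0.18, limma adjusted p = 0.008858). In perinates its KO readings of 103, 146 and 174 overlapped the WT readings of 106, 124 and 117 (0.26 ± 0.18, adjusted p = 0.318). Apoe, the ligand through which remnant particles are taken up by receptors, was called at neither age. It read 1331, 965 and 949 in adult WT GFP+ against 746, 595 and 987 in KO cells (-0.49 ± 0.20, adjusted p = 0.1005), with overlap, and 604, 804 and 853 against 467, 593 and 580 in perinates (-0.46 ± 0.20, adjusted p = 0.1024).

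Of the complement proteins, which act in plasma against microbes, only C8b and Cfb could be tested. C8b, a chain of the membrane attack complex, fell 1.47-fold in adults and 1.74-fold in perinates (limma adjusted p = 0.005338 and 0.0002367). Its levels were low, 121 ± 16.8 in adult WT GFP+ and 81.6 ± 2.06 in adult KO cells, 109 ± 8.05 and 62.7 ± 5.82 in perinates (SD, n = 3 each). Factor B (Cfb), a protease of the alternative pathway, read 488, 489 and 538 in adult WT GFP+ and 420, 376 and 279 in KO cells. That is a fall of 1.43-fold (-0.51 ± 0.17, adjusted p = 0.04391), lost without adult KO array 2 or 3 (0.0787 and 0.193) and without adult WT GFP+ array 6, 7 or 8 (0.0769, 0.0851 and 0.137). Median centring lost it too (adjusted p = 0.0592). Perinate WT and KO cells both averaged 248 (0.01 ± 0.17, adjusted p = 0.9614).

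Fgg, the gamma chain of fibrinogen, read 272, 282 and 280 in adult WT GFP+ cells and 36.1, 27.8 and 28.1 in adult KO cells. In perinates it read 192, 183 and 162 against 65.1, 34.3 and 34.6, with KO array 1 above the others. All 6 KO readings were below the 40th percentile of their arrays, as were those of Alb and Kng1, so the order of these falls was not measured. The fall was 9.14-fold in adults (-3.19 ± 0.20, limma adjusted p = 2.451e-09) and 4.20-fold in perinates (-2.07 ± 0.20, adjusted p = 8.039e-07). Without both perinate KO arrays 2 and 3 the perinatal difference was -1.46 (adjusted p = 0.000196).

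Fgb, the beta chain, read 165, 171 and 224 in adult WT GFP+ and 57.4, 45.7 and 51.7 in KO cells, and in perinates 121, 160 and 154 against 50.1, 50.1 and 51.6. It fell 3.60-fold in adults (-1.85 ± 0.14, limma adjusted p = 2.26e-08) and 2.85-fold in perinates (-1.51 ± 0.14, adjusted p = 4.195e-07). Kininogen (Kng1), the precursor of bradykinin, read 198, 316 and 260 in adult WT GFP+ and 35.4, 33.0 and 33.0 in KO cells, and 177, 169 and 169 against 36.9, 30.9 and 31.8 in perinates. WT and KO arrays did not overlap at either age for Fgb or Kng1, and all Kng1 readings in KO cells were below the 40th percentile of their arrays. It fell 7.49-fold in adults (-2.91 ± 0.15, adjusted p = 1.956e-10) and 5.19-fold in perinates (-2.38 ± 0.15, adjusted p = 3.614e-09).

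Prothrombin (F2), the precursor of thrombin, was the member called higher in perinate KO cells. It read 165, 140 and 136 there and 107, 118 and 110 in perinate WT GFP+ cells, a rise of 1.31-fold (0.39 ± 0.12, limma adjusted p = 0.02704). In adults it read 151, 139 and 122 in KO and 140, 120 and 154 in WT GFP+ cells, with full overlap (-0.01 ± 0.12, adjusted p = 0.9839). The difference stayed above 0 but was not called without perinate KO array 1 or 2 (0.31 and 0.43, adjusted p = 0.105 and 0.0521), without perinate WT GFP+ array 5 or 7 (0.36 and 0.39, adjusted p = 0.0888 and 0.0625), and without both perinate KO arrays 2 and 3 (0.57, adjusted p = 0.065). Factor X (F10), which activates prothrombin, fell 1.25-fold in perinates (adjusted p = 0.03131). That call was lost without any of perinate KO arrays 1, 2 and 3 or perinate WT GFP+ arrays 6 and 7 (adjusted p = 0.0646 to 0.0811). It was also lost with quantile normalization (-0.13, adjusted p = 0.409) and with median centring (-0.26, adjusted p = 0.0625).

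The genes of the inter-alpha inhibitor heavy chain family divided. Itih4 read 286, 311 and 243 in adult WT GFP+ and 55.6, 59.4 and 56.1 in KO cells, and 163, 124 and 152 against 48.5, 54.3 and 45.6 in perinates. It fell 4.89-fold in adults (-2.29 ± 0.16, limma adjusted p = 6.825e-09) and 2.94-fold in perinates (-1.56 ± 0.16, adjusted p = 1.279e-06). Itih3 fell 2.30-fold and 1.76-fold (adjusted p = 1.658e-06 and 0.0001484). Itih1 read 109, 125 and 113 in adult WT GFP+ cells and 159, 134 and 184 in adult KO cells, so the groups did not overlap and KO cells were the higher. The difference missed the threshold (0.45 ± 0.16, adjusted p = 0.05246), and in perinates it was 0.23 ± 0.16 (adjusted p = 0.2815) with overlap.

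The 18 members too dim to be tested were Afp and Ahsg among carriers, Apoh and Apom among apolipoproteins, C4b, C6, C8a and C9 of complement, F5, F7, F9, F11, Fga, Plg, Proc, Hrg and Vtn of the clotting group, and Itih2. Alpha-fetoprotein (Afp), the fetal counterpart of albumin, lay between 39.7 and 77.5 on the 17 arrays. Vitronectin (Vtn), a plasma and matrix adhesion protein, passed the 40th percentile on a lone perinate WT GFP+ array, at 115.5. Some of these genes were lower in KO cells without overlap, such as Itih2 at 69.2 ± 0.6 in adult WT GFP+ and 43.1 ± 2.33 in KO cells and coagulation factor F5 at 73.4 ± 12.3 and 44.4 ± 1.48 (SD, n = 3 each). Fga, the alpha chain of fibrinogen, had a pair of probe sets that averaged 49.1 and 58.2 in adult WT GFP+ cells and 61.8 and 54.1 in adult KO cells, so the difference had opposite signs, and the unfiltered call of Fga as higher in adults rests on the first.

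Whether the knockout difference itself changed with age was tested as the perinatal minus the adult difference. Apob was the member called, at 0.95 ± 0.19 on the log2 scale (limma adjusted p = 0.02243), where 0.722% of all tested genes were called higher and 0.484% lower. Apob was below the 40th percentile on all 3 adult KO arrays and on 2 of 3 perinate KO arrays, while adult WT GFP+ cells read higher than perinatal ones, so signal near background limits how far each fall could be measured. The call was lost without adult WT GFP+ array 7 or 8 (adjusted p = 0.0627 and 0.0557), adult KO array 3 (0.0502), perinate WT GFP+ array 5 (0.0512) or perinate KO array 3 (0.0567), and without both perinate KO arrays 2 and 3 (0.0616), while the value stayed between 0.85 and 1.08. Fgg (1.12 ± 0.28, adjusted p = 0.05912), Apoc1 (0.99 ± 0.26, 0.0691), Alb (0.96 ± 0.24, 0.05846) and Trf (0.74 ± 0.18, 0.05741) had differences of the same sign that missed the threshold. Alb and Fgg were below the 40th percentile on every KO array of both ages, so the limit given for Apob holds for them. It also holds for the adult and perinatal folds of Ambp, C8b, Fgb, Hp, Hpx, Itih3, Itih4 and Kng1, which were below it on every KO array. For Apoa1 (0.20 ± 0.22, adjusted p = 0.6754) and Apoc3 (0.07 ± 0.30, 0.9252) the difference was within 1 standard error of 0. Over the 43 members 20 were below 0, with a median of 0.03, against 54.6% of all genes and a median of -0.03. The 25 tested members had a median of 0.34 (all tested genes, 0.02), and signal near background limits that value too.

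**Figure D3:**
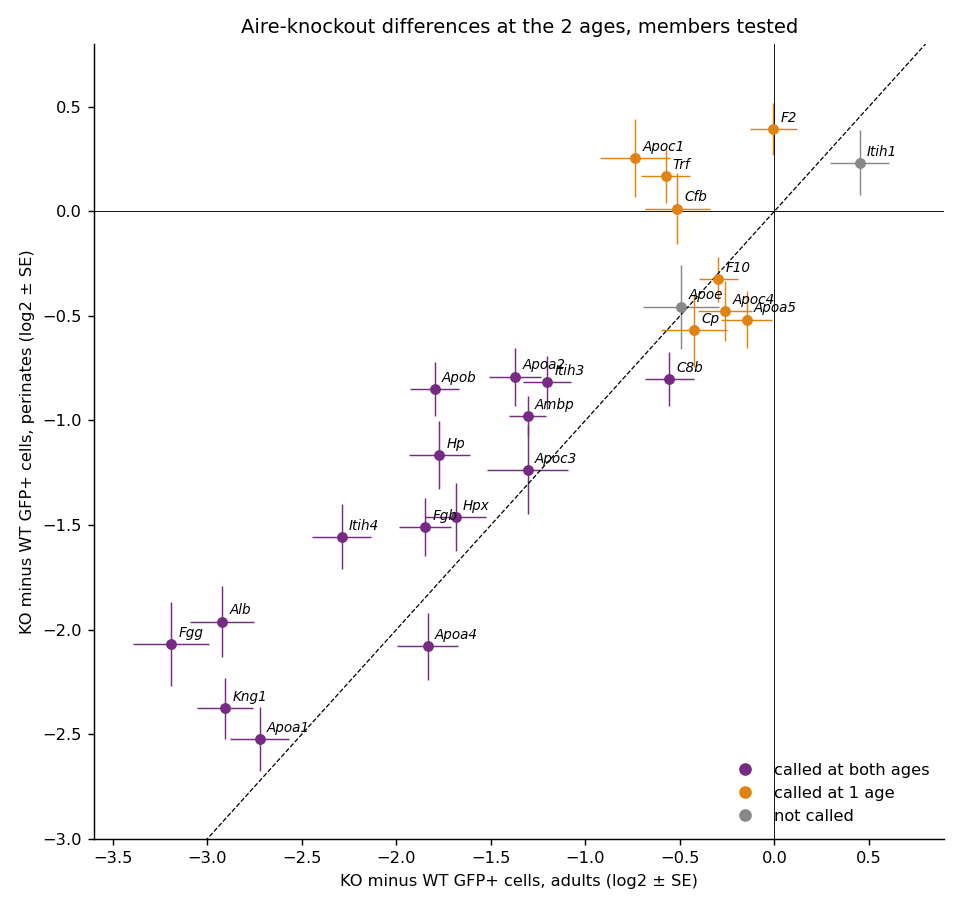
KO minus WT difference in GFP+ cells (log2 ± SE) of the 25 tested members in adults (x axis) and perinates (y axis), coloured by whether it was called at both ages, at 1 age or at neither. The dashed line marks equal differences: Apoa1 and Apoc3 lie near it, Alb, Fgg and Apob lie above it, and Itih1 and F2 lie to the right of the others.

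In WT GFP+ cells 14 of the 25 tested members were lower in perinates than in adults and none was higher by limma, also at an unadjusted p under 0.05, against 13.6% and 8.52% of all tested genes. Without the filter, 13 of the 43 measured were lower and 2 higher (Fga and Vtn, both dim), against 10.4% and 7.12% of all genes. Over the 43, 30 were below 0 with a median of -0.21, against 44.3% of all genes. The largest differences were in Apoc3, from 933, 936 and 1141 in adults to 301, 319 and 401 in perinates (2.96-fold, -1.57 ± 0.21, limma adjusted p = 0.0001087), and Trf, from a mean of 1586 ± 56.6 to 587 ± 87.5 (2.72-fold, adjusted p = 3.175e-06; SD, n = 3 each). Apoa4 was 2.25-fold lower in perinates, Cfb 2.06-fold, Itih4 1.92-fold, Alb 1.88-fold and Apob 1.76-fold (adjusted p = 0.0001161 to 0.001288). The adult and perinatal arrays of Apoc3, Trf, Apoa4, Cfb, Itih4, Alb and Apob did not overlap, whereas those of Apoa2 did. Apoa1 was not called (-0.29 ± 0.16, adjusted p = 0.1871). Without adult WT GFP+ array 7 the count fell to 9, with Ambp, Fgg, Hp, Hpx and Kng1 lost (adjusted p = 0.0667, 0.0786, 0.0688, 0.0666 and 0.0707). Some were also lost without other WT GFP+ arrays: Ambp without adult 6 or 8 or perinate 5 or 7 (0.0521 to 0.12), Fgg without adult 6 or 8 or perinate 6 or 7 (0.0558 to 0.0954), Hp without adult 6 or 8 or perinate 5 or 6 (0.0582 to 0.181), Hpx without perinate 7 (0.0692) and Apoa2 without adult 8 (0.059).

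In KO GFP+ cells 6 members were lower in perinates and Apoc1 was higher, against 12.7% and 13.4% of all tested genes, so the 6 and 1 of 25 tested are not far from the background. Apoc3 was 2.82-fold lower and Apoa4 2.67-fold lower in perinate KO cells (limma adjusted p = 0.0001148 and 1.62e-05). Trf was 1.62-fold lower, Itih1 1.56-fold, Cfb 1.43-fold and C8b 1.30-fold (adjusted p = 0.001038 to 0.039). Apoc1 was 2.00-fold higher (1.00 ± 0.18, adjusted p = 0.001005). The calls of Apoc1, Cfb and C8b were lost without both perinate KO arrays 2 and 3 (adjusted p = 0.108, 0.113 and 0.104). Cfb was also lost without adult KO array 1 or 2 or any perinate KO array (adjusted p = 0.0615 to 0.145), and C8b without adult KO array 1, 2 or 3 or perinate KO array 1 or 2 (0.0744 to 0.131).

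In WT GFP- cells 13 members were lower in perinates and Fgg was higher, where 24.2% and 22.2% of all tested genes were. Aire read 494.9 to 930.1 in adult and 270 and 351 in perinate GFP- cells, and 4072 or more on every GFP+ array. Apoc3 read 1123, 1495 and 986 in adults and 167 and 120 in perinates, an 8.36-fold difference (-3.06 ± 0.24, limma adjusted p = 4.145e-08). Apoa4 read 1111, 1446 and 1362 against 224 and 194 (6.23-fold, adjusted p = 1.006e-08), and Apoa1 738, 958 and 947 against 263 and 243 (3.46-fold, adjusted p = 3.945e-07). Fgg went the other way, with 45.6, 49.2 and 38.0 in adults and 159 and 119 in perinates (3.13-fold higher, 1.64 ± 0.22, adjusted p = 1.47e-05). All these groups were separate. Albumin was 3.30-fold, transferrin 2.93-fold, haptoglobin 2.92-fold, Apob 2.14-fold and factor B 2.13-fold lower in perinates (adjusted p = 2.949e-07 to 0.0001965).

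Between WT GFP+ and GFP- cells of the same age, most called members were higher in GFP+ cells, and a few were higher in GFP- cells. In adults 16 of 25 were higher in GFP+ cells and 3 lower, where 24.7% and 20.1% of all tested genes were. Ambp, C8b, Fgb, Itih3 and Itih4 passed the filter through WT GFP+ arrays alone. Without the filter, 19 of the 43 measured were higher and 5 lower, against 20% and 16.6% of all genes. Fgg was 6.32-fold higher (2.66 ± 0.20, limma adjusted p = 4.058e-08), Itih4 3.52-fold, Trf 2.62-fold, Fgb 2.51-fold, Apob 2.46-fold, Kng1 2.42-fold and Alb 2.13-fold (adjusted p from 1.535e-07 to 6.849e-05). Apoe was 2.27-fold, Hp 1.98-fold and Apoc1 1.45-fold lower in GFP+ cells (adjusted p = 0.0001526, 0.0001134 and 0.02754). Apoe read 2471, 1935 and 2973 in adult GFP- cells and 1649 and 2000 in perinate GFP- cells, all above every GFP+ array. The adult Apoc1 call was lost without adult WT GFP+ array 7 or 8 or adult WT GFP- array 7 or 8 (adjusted p = 0.0577 to 0.0986).

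In perinates 18 of 25 were higher in GFP+ cells and 2 lower, where 23% and 20.5% of all tested genes were. Of the 43 measured, with no filter, 21 were higher and 2 lower, against 18.2% and 15.9% of all genes. Apoa4 was 4.93-fold, Apoa1 4.35-fold, Alb 3.73-fold, Kng1 3.22-fold and Apob 2.99-fold higher in GFP+ cells (limma adjusted p = 3.403e-08 to 4.923e-07). Trf was 2.82-fold, Fgb 2.62-fold, Apoc3 2.38-fold and Itih4 2.27-fold higher (adjusted p = 3.708e-07 to 0.0004077). Apoe was 2.44-fold and Apoc1 1.75-fold lower (adjusted p = 0.0001851 and 0.004371). Fgg, at 192, 183 and 162 in GFP+ and 159 and 119 in GFP- cells, was not called. The GFP- group had 2 arrays, and the Apoc1 call was lost without perinate WT GFP- array 2 (adjusted p = 0.0829). So was that of Hpx (0.452), while F2 and Itih1 were lost without array 1 (0.354 and 0.123). F10 was lost without either (0.0635 and 0.114). Without GFP- array 1, 15 members were higher and 2 lower, and without array 2, 16 and 1. Dropping a perinate WT GFP+ array also lost Hpx, F2, F10 or Itih1 (adjusted p = 0.0509 to 0.0851).

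The GFP+ minus GFP- difference was then compared between ages, in a comparison added after the data had been examined. It was larger in perinates for Apoa1 by 1.498 ± 0.23, for Apoc3 by 1.498 ± 0.32, for Apoa4 by 1.47 ± 0.24, for Hp by 1.07 ± 0.24 and for Alb by 0.81 ± 0.25 on the log2 scale (limma adjusted p = 0.0002741, 0.003224, 0.00044, 0.004848 and 0.03277). For Fgg it was smaller in perinates by 2.28 (SE 0.30, adjusted p = 6.57e-05). These 6 of 25 stand against 20% of all tested genes called either way, so the share of members is near the background. The Alb call was lost without adult WT GFP+ array 6 or 7, adult WT GFP- array 6, perinate WT GFP+ array 5 or 6, or perinate WT GFP- array 1 or 2 (adjusted p = 0.0515 to 0.0912).

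**Figure D4:**
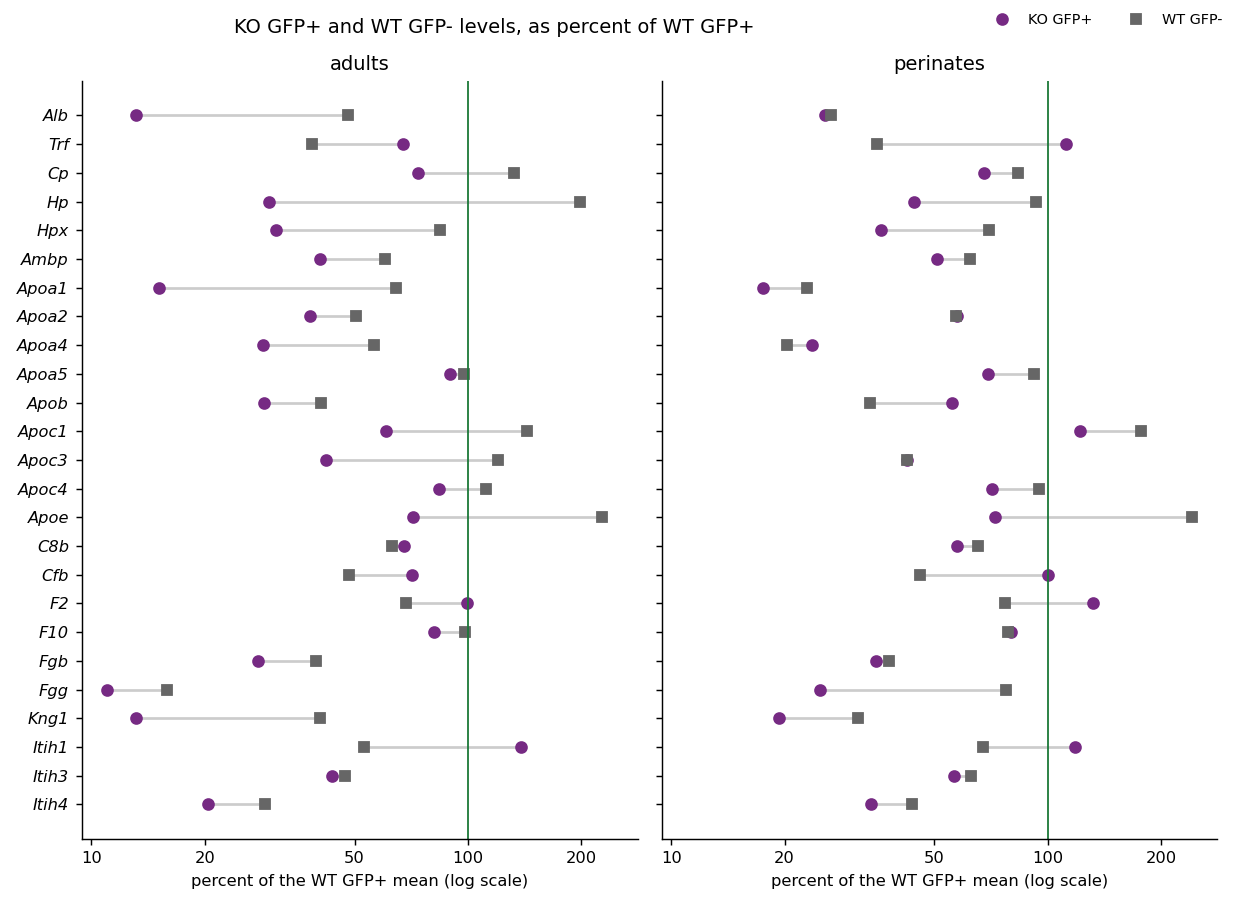
Mean intensity of the 25 tested members in KO GFP+ cells (circles) and WT GFP- cells (squares) as a percentage of the mean in WT GFP+ cells of the same age (green line at 100; log axis), with no error drawn. In adults Alb stood at 13.1% in KO and 48.1% in GFP- cells, in perinates at 25.6% and 26.6%; Apoe in GFP- cells lies to the right of the line at both ages.

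KO GFP+ cells, labelled as Aire knockouts, and WT GFP- cells, in which Aire read lower than in WT GFP+ cells, also differed from each other. In adults 18 of 25 members were lower in KO GFP+ than in WT GFP- cells and 4 were higher, against 25.1% and 30.2% of all tested genes. Hp was 6.76-fold, Apoa1 4.28-fold, Alb 3.56-fold, Apoe 3.19-fold, Kng1 3.09-fold, Apoc3 2.93-fold and Hpx 2.72-fold lower (limma adjusted p = 1.415e-09 to 1.222e-05). Itih1 was 2.58-fold, Trf 1.76-fold, Cfb 1.47-fold and F2 1.45-fold higher in KO GFP+ cells (adjusted p = 1.656e-06, 5.641e-05, 0.01126 and 0.001562). The Cfb arrays overlapped and its call was lost without adult KO array 1 or adult WT GFP- array 6 or 8 (adjusted p = 0.0642, 0.0509 and 0.0546).

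In perinates 9 were lower in KO GFP+ cells and 5 higher, against 24.1% and 26.6% of all tested genes. Apoe was 3.34-fold, Fgg 3.23-fold and Hp 2.11-fold lower (limma adjusted p = 7.974e-06, 9.914e-06 and 0.0001219). Trf was 3.17-fold, Cfb 2.19-fold, Itih1 1.73-fold, F2 1.73-fold and Apob 1.66-fold higher (adjusted p = 9.409e-08 to 0.001299). Albumin, Apoa1, Apoa4, Apoc3 and Fgb were called in neither direction there. Without perinate WT GFP- array 1, and again without array 2, 5 were lower and 5 higher. Dropping both perinate KO arrays 2 and 3 left 5 lower and 4 higher, with Itih1 among those lost (adjusted p = 0.123) and Fgg at -1.08 on the log2 scale in place of -1.69. The comparisons of KO GFP+ with WT GFP+, WT GFP+ with GFP-, and KO GFP+ with GFP- cells share samples, so their values are not independent.

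Several members are neighbours on a chromosome, in the order of the RefSeq gene table. The run of Apoa1, Apoc3, Apoa4 and Apoa5 on chromosome 9 gave adult KO differences of -2.72, -1.30, -1.83 and -0.15 on the log2 scale, so that Apoa5, at the end of the run, was the member not called in adults. On chromosome 14, Itih4, Itih3 and Itih1 gave -2.29, -1.20 and 0.45. On chromosome 3, Fgg and Fgb gave -3.19 and -1.85, with the dim Fga between them. On chromosome 16, Kng1 gave -2.91 and its neighbour Kng2, a second kininogen that is no member, -0.77 (adjusted p = 0.00131), while Fetub in the same run gave -0.13 in adults (adjusted p = 0.687) and -1.09 in perinates (adjusted p = 0.000417). Alb and Afp on chromosome 5 gave -2.92 and, untested, -0.50. Kng1 and Kng2 are close copies, and whether their probe sets cross-hybridise was not tested.

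**Figure D5:**
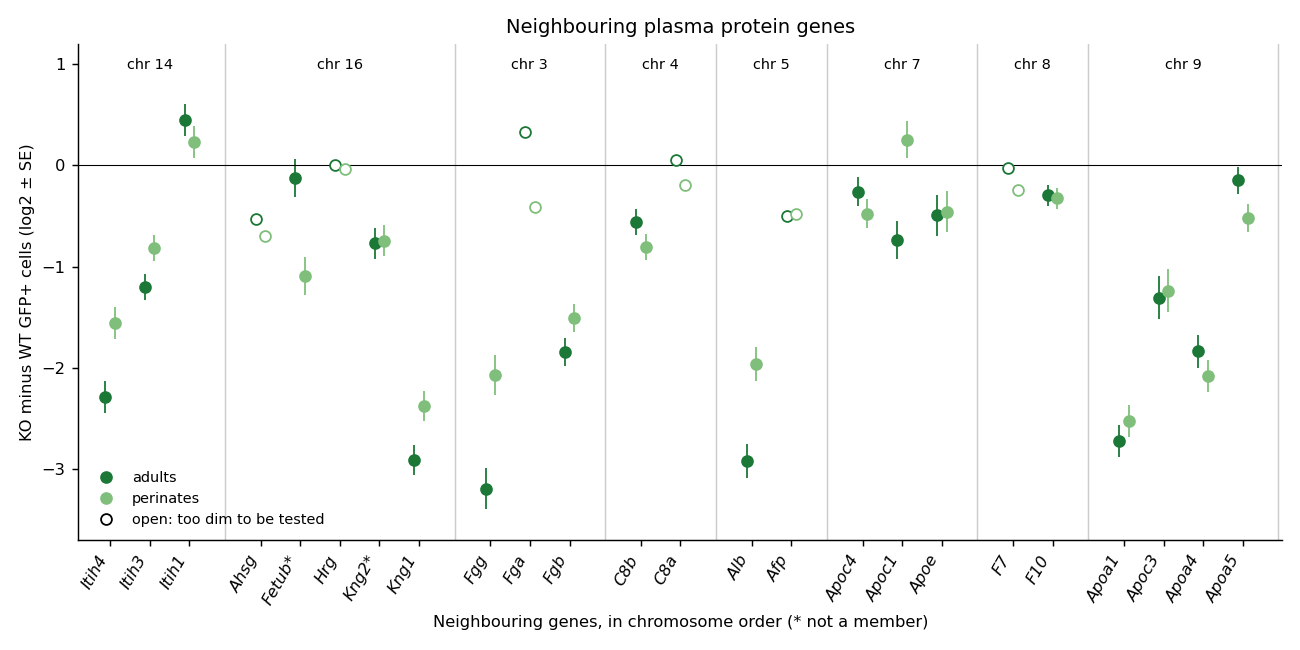
KO minus WT difference in GFP+ cells (log2 ± SE) of neighbouring genes in chromosome order, for adults (dark) and perinates (light), with open points for genes too dim to be tested. Within the chromosome 14 run the values go from -2.29 for Itih4 to 0.45 for Itih1 in adults, and within the chromosome 9 run Apoa5 lies closest to 0.

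A list of 50 other plasma proteins, with 44 measured and 28 tested, also held more called lower than higher. In adults 15 were lower in KO cells, and in perinates 16 were lower and 2 higher. The background shares of these comparisons are those given above. Serum amyloid and orosomucoid genes, of the acute-phase response, led: Saa4 fell from 322 ± 87.9 to 31.0 ± 4.75 in adults (10.2-fold, -3.35 ± 0.20, limma adjusted p = 1.9e-09; SD, n = 3 each) and Saa2 from 384 ± 118 to 37.1 ± 7.75 (10.2-fold, adjusted p = 1.83e-09). Orm2 fell 4.56-fold (adjusted p = 2.27e-05), and the growth factor Igf1 4.27-fold, from 2240 ± 87.7 to 525 ± 42.4 (adjusted p = 3.73e-08). In perinates Saa2, Saa4, Orm1 and Igf1 changed by log2 -3.03, -2.91, -2.03 and -1.42 (adjusted p = 1.02e-08, 1.7e-08, 0.000224 and 6e-06), and Pros1, the anticoagulant protein S, and Igfals, which carries insulin-like growth factors, rose 1.92-fold and 1.85-fold (adjusted p = 0.0076 and 0.00146). Saa1, Saa2 and Saa4, and Orm1 and Orm2, are close copies whose probe sets may share signal.

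Of 18 listed genes that handle lipoproteins rather than form them, 13 were tested. In adults 3 were lower, where 10.8% of all tested genes were lower and 9.06% higher. In perinates 2 were lower and 1 higher, against 13% and 13.5%, which is near the background. In adults Lpl, Lrp8 and Lrp1 fell (1.80-fold, 1.62-fold and 1.57-fold; limma adjusted p = 0.00546, 0.00981 and 9.04e-05). In perinates Lrp8 and Scarb1, the high-density lipoprotein receptor, fell (1.85-fold and 1.55-fold; adjusted p = 0.00151 and 0.0245), while Mttp, which loads lipid onto Apob, rose 1.42-fold (adjusted p = 0.00593).

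Of 19 listed liver transcription factors 10 were tested. In adults 3 were lower, against 10.8% of all tested genes. In perinates 3 were lower and 1 higher, against 13% and 13.5%. Counts this small are not far from the background. In adults Foxa1, Hnf4a and Creb3l3 fell 1.54-fold, 1.36-fold and 1.29-fold (limma adjusted p = 0.0277, 0.0404 and 0.0263). In perinates Hnf4a, Onecut2 and Creb3l3 fell 1.68-fold, 1.35-fold and 1.28-fold (adjusted p = 0.00115, 0.0429 and 0.0259), and Zhx2, a repressor of Afp, rose 1.61-fold (adjusted p = 0.0084). Hnf4a read 138, 184 and 179 in adult WT GFP+ and 132, 114 and 121 in adult KO cells, which did not overlap. Cebpa read 391, 388 and 446 in adult WT GFP+ and 1152, 867 and 838 in adult WT GFP- cells.

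Enzymes inside hepatocytes fell too. Of 8 tested of 25 listed, 6 fell in adults, with Pck1 called higher, and 6 fell in perinates. Among all tested genes 10.8% fell and 9.06% rose in adults, and 13% and 13.5% in perinates. Cps1, of the urea cycle, went from 134 ± 13.1 to 41.6 ± 2.63 in adults and G6pc, glucose-6-phosphatase, from 175 ± 14.7 to 64.5 ± 12.7 (3.22-fold and 2.75-fold; limma adjusted p = 1.94e-08 and 0.000751; SD, n = 3 each). The hepatocyte enzymes' summed level was 3175 to 3518 in adult WT GFP+, 1715 to 1892 in adult KO, 2220 to 2283 in perinate WT GFP+ and 1487 to 1549 in perinate KO cells.

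Markers of other cell types that make some of these proteins also moved. The shares of all tested genes were 10.8% lower and 9.06% higher in adult KO cells, and 13% and 13.5% in perinate KO cells. Of 14 enterocyte markers 12 were tested: 7 fell and 1 rose in adult KO cells, and 6 fell and 2 rose in perinate KO cells. Their sum was 4353 to 4982 in adult WT GFP+, 3206 to 3480 in adult KO, 3362 to 3927 in perinate WT GFP+, 2903 to 3317 in perinate KO, 4959 to 5927 in adult GFP- and 1598 to 2018 in perinate GFP- cells. Of 16 macrophage and dendritic cell markers 13 were tested: 8 fell and 2 rose in adults, and 6 fell and 1 rose in perinates. Their sum was 9010 to 9040 in adult WT GFP+, 7049 to 7454 in adult KO, 6253 to 6626 in perinate WT GFP+, 5341 to 6008 in perinate KO, 6016 to 7449 in adult GFP- and 1594 to 1849 in perinate GFP- cells. No marker reads 0, since array intensities include background; Adgre1 read 36.9 to 46.0 in adult GFP- and 44.2 to 64.5 in adult KO cells, below the 40th percentile.

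The pan-leukocyte Ptprc was not called in either KO comparison (0.27 ± 0.28 and -0.05 ± 0.28, limma adjusted p = 0.532 and 0.901), while Adgre1 fell 3.85-fold in adults and C1qb 2.40-fold (adjusted p = 3.66e-07 and 0.00127). Fcer1g and Zbtb46, of the same list, were called higher in adult KO cells, and Fcer1g also in perinate KO cells. Of 13 fibroblast and endothelial markers 11 were tested: 2 fell and 2 rose in adults, 3 fell and 2 rose in perinates. The shares of all tested genes given above apply to these counts and to the next lists, and none lies far from them. Of 13 thymocyte and B cell markers 6 were tested: 1 call was made over both ages, Cd4, which fell in perinates. Of 17 thymic epithelial genes tested, not all of them particular to the medulla, Enpep fell at both ages and Tnfrsf11a rose in perinates. The part of other cell types in the members' differences was not tested.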

How the data were processed

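The deposited table, per the file headers and the submitters' processing notes, holds linear intensities per probe set that the authors made from the arrays with Affymetrix Power Tools and RMA. Tool versions and the build are not given in the sources. Of 24922 probe sets, 21425 had 1 gene symbol in the platform annotation, 1399 several and 2098 none.

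Log2 intensities were fitted with limma 3.58.1 in R 4.3.3, with a mean for each of 6 groups over all 17 arrays and no covariates (11 residual degrees of freedom), and the test's behaviour was checked on simulated data. P-values were adjusted over 13842 genes in each of 11 comparisons, 1 of them added after the data were examined (the GFP difference between ages). A fold is the ratio of geometric means. A level is the arithmetic mean ± SD. The number of arrays limits precision, and background signal compresses folds of dim genes.

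The members, gene lists, motifs and tests were chosen with earlier results of these data known. Statistics are given for up to 12 called members with the largest change per comparison, for members called in the age interaction, for members higher in KO cells and for those called at neither age; of other lists, counts and up to 4 called genes. Further genes were named after their values were seen. The adult GFP- and GFP+ samples share numbers in their labels, which state no pairing. Deviations from group means correlated at 0.503, 0.443 and 0.188 for numbers 6, 7 and 8. For unequal numbers the values were -0.439 to 0.0971. Deviations within a group of 3 arrays depend on each other, so these values cannot settle whether the samples are pairs. The block with these numbers changed no count by over 1.5 times. Alternatives were quantile normalization, median centring, other filters, array weights, trend and robust settings, fewer groups, all probe sets of a gene, the replicate block and leaving out arrays; dropping perinate KO arrays 2 and 3 together was added after the data were examined.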

Additional observations from a re-analysis of the deposited data

Results flagged for a closer look

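Differences between the ages were called for 7 values. Apob had a KO minus WT difference that was 0.949 higher in perinates on the log2 scale (limma adjusted p = 0.0224, 3 arrays in each of the 4 groups; KO arrays were lower than every WT array of their age in 6 of 6, and 5 of these 6 were below the 40th percentile).

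The other 6 concern the GFP+ minus GFP- difference in WT cells, which rests on 2 perinatal GFP- arrays. It was greater in perinates by 1.5 for Apoa1 (limma adjusted p = 0.000274), 1.5 for Apoc3 (0.00322), 1.47 for Apoa4 (0.00044), 1.07 for Hp (0.00485) and 0.812 for Alb (0.0328). For Fgg the perinatal minus adult value was -2.28 (6.57e-05): its GFP- cells read 159 and 119 in perinates and at most 49.2 in adults. Outlying samples were not looked for, as groups held 2 or 3 arrays.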

How the results depend on the processing

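Of 155 single-gene calls tried under 2189 settings in all, 2020 kept their call, 169 lost it and none reversed; 36 of the calls were lost under at least 1 setting. For the KO difference between ages, the count of members called was 1. It was 2 with no filter, 6 with array weights, 3 with only the groups compared, and 0 to 3 when an array was left out. The share of all genes called was 1.21%, and under these settings 1.26%, 5.84%, 1.82% and 0.355% to 1.56%. A filter at the 60th percentile left 14 members to test, and the share of all genes called follows each count. It gave 11 calls in perinate KO cells (21.4%) and 4 for age in KO cells (30.9%). For GFP it gave 12 in adults (49.6%) and 12 in perinates (47.5%). Adult KO against adult GFP- cells gave 14 (61.5%) and the perinatal pair 8 (54.7%). Without both perinate KO arrays 2 and 3 the last was 9.

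With an array left out, the counts ran from 17 to 18 for KO in adults, 15 to 18 for KO in perinates, 9 to 13 for age in WT GFP+ cells, 13 to 16 for age in GFP- cells, 5 to 7 for age in KO cells, 18 to 20 for GFP in adults, 17 to 19 for GFP in perinates, 16 to 21 for adult KO against adult GFP- cells, 10 to 12 for the perinatal pair, and 5 to 7 for the GFP difference between ages. In the same order, the shares of all genes called ran from 13.3% to 17.8%, 17.3% to 26.5%, 15% to 20% and 38.3% to 44.3%. For the next 3 they ran from 18.6% to 23.1%, 38.1% to 40.4% and 36.2% to 42.8%. For the last 3 they ran from 48.3% to 52.6%, 40.4% to 46.2% and 16.3% to 20.7%.

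The fit with the replicate number as a block gave 19 members called for GFP in adults, as without it (52.6% and 44.9% of all genes). KO samples of the 2 ages share only a number (r = 0.0486, 0.039 and 0.0589), as do perinate GFP- and KO samples (r = 0.27 and 0.166). Their blocks gave 9 and 11 calls (27% and 39.1% of all genes). Signal near background limits the members below the filter, and 2 arrays limit the perinatal GFP- group.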
